A study of Mus musculus with 48 samples.

Results

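The mouse IGHV10 family contributes 2 genes, IGHV10-1 and IGHV10-3, to the 148 IGHV genes found in these B cell receptor (BCR) heavy-chain repertoires. A sequence belonged to the family when the gene named in its IGHV call was one of them, and this held for 107900 of 4834214 unique sequences summed over the libraries. IGHV10-1 made up 2295 of them in the lacrimal gland (LG) and 66476 in the spleen, and IGHV10-3 made up 2210 and 36919. A further 23 sequences assigned to IGHV10S3 were not counted as members. Heavy-chain transcripts of LG and spleen were sequenced in 24 C57BL/6 mice, and all 48 libraries were used. Of these mice, 10 (NOD-FMT) were given antibiotics for 7 days and then, from 5 weeks of age, oral gavage over 3 weeks with the fecal supernatant of NOD.B10.H2b donors that were older than 20 weeks and had autoimmune dry eye disease. Another 9 (PBS-T) received antibiotics and PBS on the same schedule, and 5 of the same cohort (NC) were left untreated.

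The variable part of an antibody heavy chain is joined from an IGHV, an IGHD and an IGHJ segment, and the loop made at the joint is HCDR3. IGHV10 genes are known for their recurrent use in antibodies that bind DNA, in lupus-prone mice and in immunized ones, where arginine residues in HCDR3 are a recognized feature of such antibodies because their positive charge can pair with the phosphate backbone. After an antigen encounter a B cell may switch from IgM and IgD to IgG or IgA and may mutate its IGHV segment, and IgA is the antibody class carried into tears by the LG. No binding to DNA was measured here, so the family is described by its genes and sequences alone. The files hold immunoglobulin heavy-chain sequences only, and the labelled tissues could not be checked against other marker genes.

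Both genes lie on the minus strand of chromosome 12 in GRCm38. IGHV10-1 (ENSMUSG00000095981.1) spans 114479005 to 114479451, with exons of 46 and 313 bases, and IGHV10-3 (ENSMUSG00000095700.2) spans 114523441 to 114523905, with exons of 64 and 313 bases. Their starts are 44436 bases apart, and the annotation lists IGHV10-2 and IGHV10-4 as pseudogenes. Over the last 300 bases of the reference transcripts 10 bases differed, an identity of 96.7%. The stretches printed here show where the coding sequences part in CDR1, CDR2 and the end that enters HCDR3, with the differing bases in capitals.

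IGHV10-1 CDR1: ggAttcaGcttcaatacctaCgcc
IGHV10-3 CDR1: ggTttcaCcttcaatacctaTgcc
IGHV10-1 CDR2: ataagaagtaaaagtaAtaattatgcaaca
IGHV10-3 CDR2: ataagaagtaaaagtaGtaattatgcaaca
IGHV10-1 3′ end: ggacacagccatgtattactgtgtgagaCa
IGHV10-3 3′ end: ggacacagccatgtattactgtgtgagaGa

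Counted from 1 at the 5′ end of each printed stretch, with the base of IGHV10-1 first, the differences are A3T, G8C and C21T in CDR1, A17G in CDR2 and C29G at the 3′ end. These CDR1 and CDR2 stretches are the most frequent among unmutated sequences, and each is found in the reference transcript of its gene. They were carried by 99.9% of the unmutated IGHV10-1 sequences and 99.8% of the unmutated IGHV10-3 sequences in the libraries. Unmutated sequences are those without a mismatch to the gene they were called as, so these shares do not test the assignment. The last codons before the joint, gtg and aga, encode valine and arginine in both genes. HCDR3 began with valine and arginine in 77.4% of IGHV10-1 and 87.1% of IGHV10-3 spleen clonotypes. For this reason arginines were counted only after the first 2 residues of HCDR3. The incomplete codon that follows starts with ca in IGHV10-1, as do the codons of histidine and glutamine, and with ga in IGHV10-3, as do those of aspartate and glutamate.

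A clonotype grouped the sequences of a library that shared their IGHV gene, their IGHJ gene and the residues of HCDR3. The LG libraries held 560 to 17213 clonotypes (median 882.5), of which 7 to 194 (median 27) used IGHV10, and the spleen libraries held 23002 to 593820 (median 127904.5), of which 526 to 14211 (median 3211) did. Values of single LG libraries are therefore coarse. The LG library of PBS-T 5 stood apart with 17213 clonotypes, where no other LG library had more than 2504. Of the LG files, 6 of NOD-FMT, 4 of PBS-T and 1 of NC are marked as merged, a term that the sources used here do not explain, and the LG difference in the share of clonotypes between NOD-FMT and PBS-T is given for both kinds of file.

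IGHV10 clonotypes made up a larger share of the LG repertoire in NOD-FMT mice than in PBS-T mice. The share per mouse was 1.60, 5.84, 5.53, 3.53, 3.94, 3.35, 1.96, 3.36, 4.43 and 6.28% in NOD-FMT 1 to 10. In PBS-T 1 to 9 it was 2.42, 1.25, 1.39, 1.28, 1.13, 1.46, 1.94, 4.25 and 1.54%. In NC 1 to 5 it was 2.05, 1.67, 1.29, 2.81 and 2.90%. The 95% Wilson interval, which covers counting error only, was 5.03 to 7.83% for the highest NOD-FMT mouse and 0.980 to 1.30% for the lowest PBS-T mouse. Of the NOD-FMT mice, 8 lay above every NC mouse, while the ranges of NOD-FMT and PBS-T overlapped, PBS-T 1, PBS-T 7 and PBS-T 8 lying inside the NOD-FMT range. The means were 3.98% ± 1.57 (SD, n = 10) and 1.85% ± 0.986 (SD, n = 9), a 2.15-fold difference of 2.13 percentage points (exact permutation test over mice, two-sided, p = 0.00357, adjusted over 15 families 0.0180). Of these families 3 passed, which is 20.0%: IGHV10 was higher in NOD-FMT, and IGHV3 and IGHV9 were lower. Against NC (2.14% ± 0.702, SD, n = 5), a comparison that uses the same NOD-FMT mice, the difference of 1.84 points did not pass (exact permutation p = 0.0283, adjusted 0.0920, with 23.1% of families called), and PBS-T and NC differed by -0.292 points (exact permutation p = 0.601, adjusted 0.764).

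**Figure D1:**
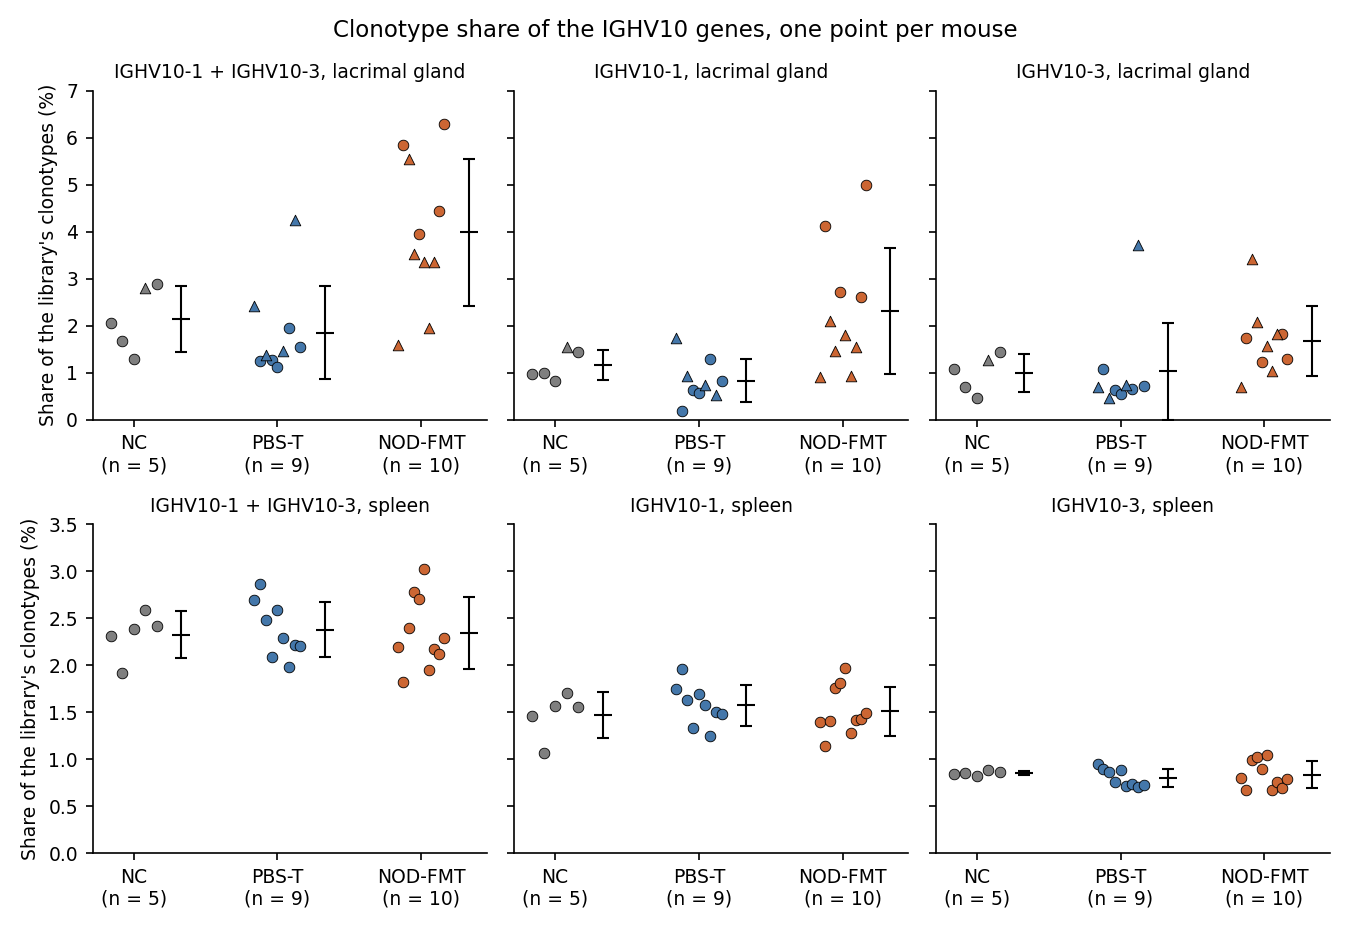
Share of IGHV10 clonotypes in the LG (top row) and the spleen (bottom row) of each mouse, as percent of the clonotypes of its library, for the family and for each gene. Points are mice, triangles are LG files marked as merged, and bars give the mean and SD of each group. For the family in the LG the mean is highest in NOD-FMT (3.98%, against 1.85% in PBS-T and 2.14% in NC), and the groups overlap in both tissues.

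The LG difference was also computed within each kind of file, and the difference between the kinds was not tested. Among libraries not marked as merged, the 4 NOD-FMT mice averaged 5.12% ± 1.12 and the 5 PBS-T mice 1.43% ± 0.325, and the groups did not overlap (difference 3.70 points, exact permutation p = 0.00794, the smallest this design can give), but the adjusted p of 0.103 did not pass. Among the merged libraries the 6 NOD-FMT mice averaged 3.22% ± 1.39 and the 4 PBS-T mice 2.38% ± 1.33, a difference of 0.843 points that did not pass (exact permutation p = 0.381, adjusted 0.741). Clonotypes that differed by 1 residue from a clonotype of the same library, IGHV gene, IGHJ gene and length with at least 10 times their counts were frequent in some LG libraries. They made up 227 of 876 IGHV10 clonotypes of the LG (25.9%) against 19.1% of the other LG clonotypes and 1.50% of the IGHV10 clonotypes of the spleen. Both groups held such libraries, with 26 of 32 in PBS-T 8, 49 of 98 in NOD-FMT 2, 22 of 42 in NOD-FMT 3 and 34 of 73 in NOD-FMT 10, while 5 PBS-T libraries held 0. Without them, a setting chosen after the data were seen, the means were 3.56% ± 1.09 in NOD-FMT, 1.66% ± 0.410 in PBS-T and 2.03% ± 0.537 in NC. NOD-FMT then exceeded PBS-T by 1.90 points (exact permutation p = 0.00039, adjusted 0.00585), by 1.38 points where files were merged (exact permutation p = 0.0476) and by 2.71 points in the others (exact permutation p = 0.00794), both of these unadjusted.

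IGHV10-1 carried 1.49 of the 2.13 points of this difference. Its share of LG clonotypes ran from 0.897 to 4.99% in NOD-FMT (median 1.95%) and from 0.179 to 1.73% in PBS-T (median 0.729%). The means were 2.32% ± 1.34 and 0.825% ± 0.456, a 2.81-fold difference (exact permutation p = 0.00219, adjusted over 91 genes 0.0497), where 4 genes, or 4.4%, passed. The adjusted value was close to the threshold of 0.05, and the call was lost when any 1 of 14 of the 19 mice was left out. Over all 19 such runs the adjusted p of the exact permutation test ran from 0.0135 to 0.124. By kind of file the IGHV10-1 difference was 0.475 points in merged libraries (exact permutation p = 0.195, adjusted 0.630) and 2.91 points in the others (exact permutation p = 0.00794, adjusted 0.163), and neither passed. In NC mice the mean was 1.16% ± 0.321, and NOD-FMT did not pass against them (difference 1.16 points, exact permutation p = 0.0773, adjusted 0.341, with 5.81% of genes called). For IGHV10-3 the means were 1.67% ± 0.745 (0.698 to 3.43%) in NOD-FMT, 1.03% ± 1.02 (0.462 to 3.72%) in PBS-T and 0.987% ± 0.407 in NC. The 0.642 points by which NOD-FMT exceeded PBS-T did not pass with all mice (exact permutation p = 0.142, adjusted 0.457). It was 0.978 points without PBS-T 8 (adjusted p = 0.0247 by the exact permutation test) and 0.662 points without the 1-residue variants (adjusted p = 0.0265). By kind of file it was 0.368 points in merged libraries (exact permutation p = 0.619, adjusted 0.913) and 0.790 points in the others (exact permutation p = 0.00794, adjusted 0.163).

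In the spleen the group means of the family lay between 2.32 and 2.37%. The IGHV10 share of clonotypes was 1.82 to 3.02% in NOD-FMT (median 2.24%), 1.98 to 2.86% in PBS-T (median 2.29%) and 1.91 to 2.58% in NC (median 2.39%). The NOD-FMT and PBS-T means of 2.34% ± 0.383 and 2.37% ± 0.294 differed by -0.0317 points (exact permutation p = 0.842, adjusted 0.941), and the exact permutation test called 0 of 13 families (0.0%), also at an unadjusted p under 0.05, as did edgeR's quasi-likelihood test after adjustment. IGHV10-1 averaged 1.51, 1.57 and 1.47% of spleen clonotypes in NOD-FMT, PBS-T and NC, and IGHV10-3 averaged 0.835, 0.802 and 0.853%. The difference between LG and spleen of the same mouse was 1.64 points in NOD-FMT (higher in the LG in 9 of 10 mice) and -0.525 points in PBS-T (higher in 1 of 9). These tissue differences themselves differed between the groups by 2.16 points (exact permutation p = 0.00451, adjusted 0.0211, with 3 of 14 families called) and for IGHV10-1 by 1.56 points (exact permutation p = 0.00220, adjusted 0.0472, with 4 of 86 genes called). Both values use the LG shares compared above, and the spleen means were close, so they are not independent of the LG difference. Neither was recomputed with single mice left out. For IGHV10-3 the value was 0.609 points (adjusted p = 0.522 by the same exact permutation test).

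Over all 24 mice the IGHV10 share was 0.449 points ± 1.62 higher in the LG than in the spleen, in 12 of 24 mice, which did not pass (sign-flip permutation test within mice, p = 0.189, adjusted 0.330, with 28.6% of families called). IGHV10-3 was 0.458 points higher in the LG, in 15 of 24 mice (permutation p = 0.0065, adjusted 0.0193, with 38.4% of genes called). By group it was higher by 0.832 points in NOD-FMT (9 of 10 mice), 0.223 points in PBS-T (3 of 9) and 0.133 points in NC (3 of 5), with exact sign-flip permutation p of 0.00391, 0.945 and 0.438. Without the 1-residue variants the value over all mice was 0.199 points and did not pass (permutation test, adjusted p = 0.0947). Within the spleen, IGHV10-1 clonotypes outnumbered those of IGHV10-3 in 24 of 24 mice, by 0.88 ± 0.18 on the log2 scale (permutation p = 1e-05, the smallest the resampling can give). In the LG the log2 ratio was 0.15 ± 1.08, IGHV10-1 was ahead in 14 of 24 mice with 3 ties, and the ratio did not differ from equal use (permutation p = 0.517). Ordered by the mean IGHV10 share, the LG of NOD-FMT came first, followed by the spleens of PBS-T, NOD-FMT and NC and by the LG of NC and PBS-T. The gap of 1.61 points between the first and the next was about the size of the larger SD, and all other neighbours differed by less than their spread.

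Measured by counts of consensus sequences instead of clonotypes, the LG share of IGHV10 varied widely between mice. In PBS-T 8, NOD-FMT 3 and NOD-FMT 10, where it was highest, most of it was 1 clonotype. In NOD-FMT 2 and PBS-T 1 the largest clonotype was 19.8 and 44.9% of the IGHV10 counts. The LG share of IGHV10 counts ran from 0.695 to 16.7% in NOD-FMT (median 1.86%), from 0.0975 to 21.4% in PBS-T (median 0.613%) and from 0.645 to 7.22% in NC (median 0.787%). The means of 5.28% ± 5.79 and 3.61% ± 7.12 in NOD-FMT and PBS-T did not differ beyond the spread (difference 1.66 points, exact permutation p = 0.591, adjusted 0.728), and 0 of 13 families (0.0%) were called by the exact permutation test, with 1 at an unadjusted p under 0.05. Counts come from RNA, so more cells of a clone and more transcript per cell cannot be told apart. Clonotypes of at least 1% of the counts were found in the LG of 4 of 10 NOD-FMT mice (8 clonotypes), 2 of 9 PBS-T mice (4) and 2 of 5 NC mice (2), and these 14 were 3.10% of the 452 clonotypes of that size. In the spleen 0 of 65 such clonotypes used IGHV10, which allows a share of up to 4.62%. An IGHV10 clonotype was the most abundant of its library in the LG of NOD-FMT 10 and PBS-T 8.

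**Figure D2:**
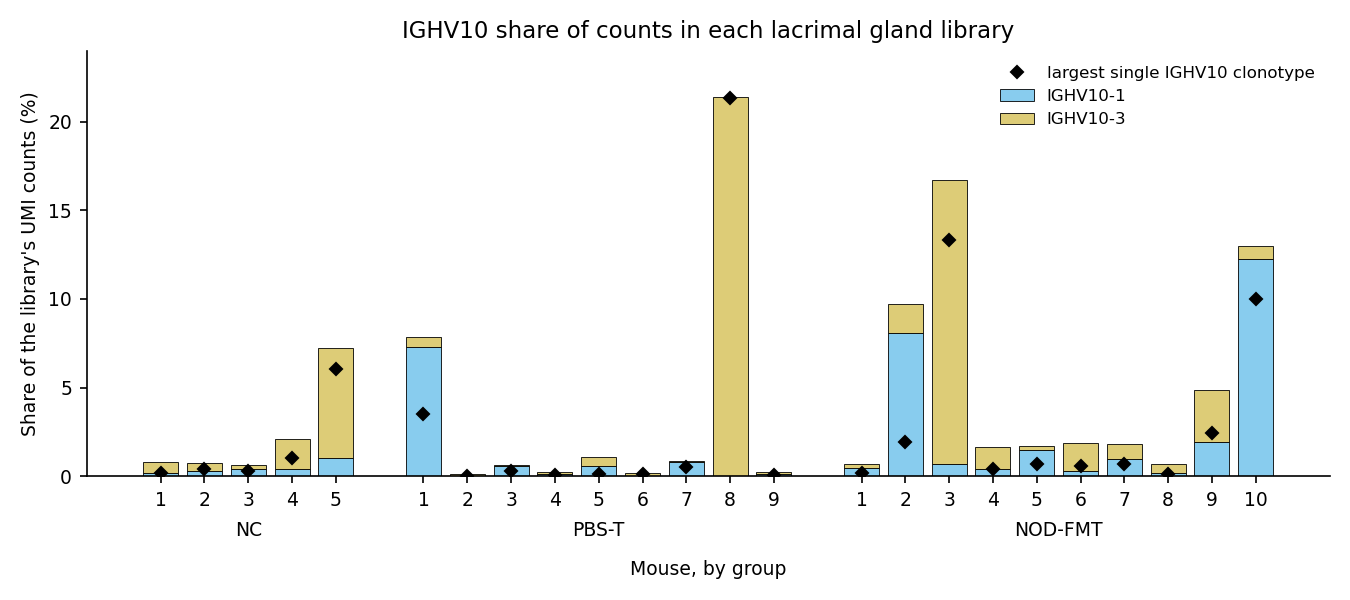
Share of UMI consensus counts taken by IGHV10-1 and IGHV10-3 in each LG library, as stacked bars in percent, with diamonds for the largest single IGHV10 clonotype. The largest clonotype is 99.7% of the IGHV10 counts in PBS-T 8, which stands at 21.4%, and 79.9 and 76.7% in NOD-FMT 3 and NOD-FMT 10. In NOD-FMT 2 and PBS-T 1 it is 19.8 and 44.9%.

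The 3 largest IGHV10 clonotypes of the LG and a clonotype held by several LG are printed as the HCDR3 nucleotide sequence that was most frequent in each, to show the joints of the clonotypes behind the highest LG counts and of a shared one. Capitals mark arginine codons after the first 2 codons.

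VGDSSGYTGDFDY: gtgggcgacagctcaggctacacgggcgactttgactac
VRDGYYDYAMDY: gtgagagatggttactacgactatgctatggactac
VRGSGLRRWYFDV: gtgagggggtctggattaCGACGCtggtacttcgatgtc
IGHV10-3 and IGHJ4, 16 residues: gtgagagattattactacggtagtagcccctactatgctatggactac

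VGDSSGYTGDFDY (IGHV10-3, IGHJ2) made up 21.4% of the counts of the LG of PBS-T 8, with 17337 counts, nearly all of them IgA, and a mean of 2.62 IGHV mutations. It had 2901 counts in the spleen of the same mouse, and 2 counts or fewer in the LG of NOD-FMT 2 and PBS-T 3. VRDGYYDYAMDY (IGHV10-3, IGHJ4) took 13.3% of the counts in NOD-FMT 3 with 8218 counts and 0.0385 mutations, and it had 326 counts in that mouse's spleen. VRGSGLRRWYFDV (IGHV10-1, IGHJ1), the only one of them with arginine codons inside the joint, took 9.98% of the counts in NOD-FMT 10 with 16029 counts and 0.0570 mutations, and 49 counts were found in its spleen. The LG of PBS-T 1 held 1 count of it. Largest IGHV10 clonotypes of IgA with few mutations were also found in PBS-T mice, as in PBS-T 1 (3.53% of counts, 0.0195 mutations). The IGHV10-3 clonotype of 16 residues joined to IGHJ4 was found in the LG of NOD-FMT 2, 5 and 7 with 30, 24 and 48 counts, and in 6 spleens, all of NOD-FMT mice. Whether this restriction of 1 clonotype to a group goes beyond chance was not tested. Of the 831 distinct IGHV10 clonotypes of the LG, 792 were held by a single mouse and 6 by 3 mice, the highest number. These numbers were counted after identical nucleotide sequences in 3 or more mice had been removed, which took out 5 IGHV10 sequences of the LG with 3614 counts and limits how far a clonotype can be shared. Of the clonotypes held by 3 mice, VGDSSGYTGDFDY had 17337, 2 and 1 counts, and VRQNSDGVGTFDY had 119, 1 and 1. Whether such single counts came from contamination between libraries was not tested.

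IGHV10 clonotypes of the spleen joined IGHJ4 more often and IGHJ2 less often than the other IGHV genes did. IGHJ4 was used by 31.1 to 39.8% of IGHV10 clonotypes over the 24 spleens (median 37.7%) and by 23.4 to 28.0% of the others (median 26.2%), and the ranges did not overlap. The means were 37.3% ± 1.92 and 26.1% ± 1.19, a difference of 11.2 points in 24 of 24 libraries (sign-flip permutation p = 1e-05, the smallest the resampling can give). Such differences were common: 92.3% of families and 88.1% of genes passed for IGHJ4, and IGHV10 ranked 2 among 13 families by size. Among unmutated IgM or IgD clonotypes alone the difference in IGHJ4 was 11.1 points. IGHJ2 was used by 22.8% ± 1.18 of IGHV10 and 34.5% ± 0.919 of other clonotypes, a lower share in 24 of 24 libraries (permutation p = 1e-05, 92.3% of families called). IGHJ1 (14.2 against 15.3%, 100% of families called) and IGHJ3 (25.7 against 24.1%, 84.6% called) differed by less. IGHV10-1 used IGHJ4 more than IGHV10-3 did, by 38.5 against 35.2%, in 22 of 24 libraries (permutation p = 1e-05, 16 comparisons of the 2 genes, adjusted 1.45e-05).

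**Figure D3:**
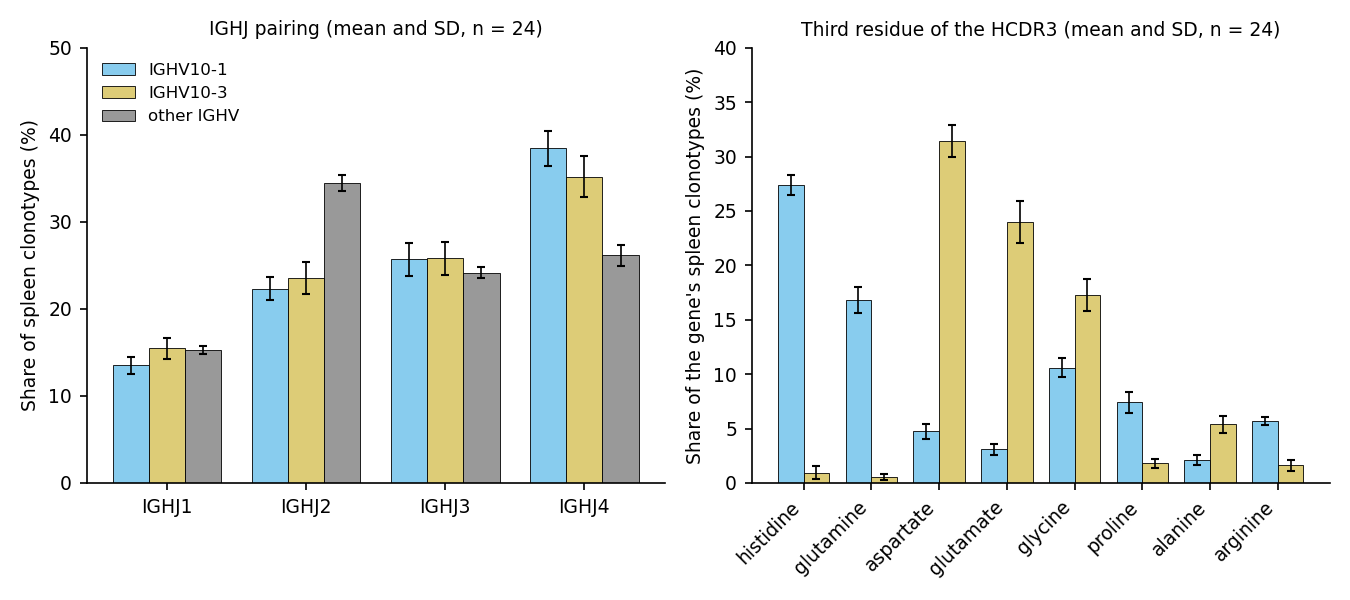
IGHJ pairing (left) and the third HCDR3 residue (right) of spleen clonotypes, in percent of the clonotypes of each gene. Bars are means and error bars SDs over 24 libraries. IGHJ4 stands at 38.5 and 35.2% in IGHV10-1 and IGHV10-3 against 26.1% in the other IGHV genes, and the third residue separates the 2 members.

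The third HCDR3 residue separated the members along the base that differs at their 3′ ends. Histidine or glutamine stood there in 44.2% ± 1.57 of IGHV10-1 and 1.52% ± 0.714 of IGHV10-3 spleen clonotypes, and aspartate or glutamate in 7.84% ± 1.02 and 55.4% ± 1.97. In IGHV10-1 the most frequent residues were histidine (27.4%), glutamine (16.8%), glycine (10.6%) and proline (7.41%). In IGHV10-3 they were aspartate (31.4%), glutamate (23.96%), glycine (17.3%) and alanine (5.40%). Arginine was the third residue in 5.70% of IGHV10-1 and 1.62% of IGHV10-3 clonotypes, and it appeared after the third residue in 13.1 and 17.2%. Each of these differences held in 24 of 24 libraries (permutation p = 1e-05). They offset each other in the total, since 18.4% of IGHV10-1 and 18.6% of IGHV10-3 clonotypes held an arginine after the first 2 residues (permutation p = 0.484).

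IGHV10 clonotypes of the spleen held arginine less often than those of other IGHV genes. The share with at least 1 arginine after the first 2 residues ran from 16.1 to 20.3% (median 18.4%) in IGHV10 and from 23.9 to 26.1% (median 25.4%) in the others, without overlap. The means of 18.5% ± 1.03 and 25.2% ± 0.592 differed by -6.78 points (permutation p = 1e-05), lower in 24 of 24 libraries, where 76.9% of families and 84.5% of genes passed and IGHV10 ranked 12 of 13 families from the highest. Clonotypes with 2 or more arginines made up 1.33% against 3.49%, again lower in 24 of 24 libraries (permutation p = 1e-05, 84.6% of families and 73.8% of genes called). When arginine was counted anywhere in HCDR3, the germline-encoded second residue included, the direction turned and IGHV10 was 2.96 points higher (permutation p = 1e-05). Among unmutated IgM or IgD clonotypes alone the difference, counted after the first 2 residues, was -6.67 points. HCDR3 averaged 11.2 residues ± 0.176 in IGHV10 and 11.5 ± 0.179 in the others, shorter in 24 of 24 libraries (permutation p = 1e-05, 92.3% of families called). The members lay on opposite sides of the other genes, with 10.98 residues in IGHV10-1 and 11.7 in IGHV10-3, which was longer in 24 of 24 libraries.

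After removal of identical nucleotide sequences in 3 or more mice, the IGHV10 clonotypes held by the most spleens were short and used IGHV10-1. The removal took out 11.4% of the IGHV10 counts of the spleen and can lower the numbers of mice, versions and shared clonotypes given here. Of 70995 distinct IGHV10 clonotypes of the spleen, 64878 were found in 1 mouse and 13 in 12 or more. Per library, 24.6% ± 2.90 of IGHV10-1 clonotypes were also found in another spleen, ranking 3 of 84 genes, against 16.1% ± 2.40 for IGHV10-3 and 15.2% ± 1.66 for the other genes (permutation p = 1e-05 for IGHV10-1, 92.9% of genes called). The 3 most widely held clonotypes and the 3 most widely held ones with 2 or more arginines are printed to show joints of IGHV10-1 to IGHJ2, IGHJ3 and IGHJ4. Capitals mark arginine codons after the first 2 codons. For each clonotype the printed HCDR3 sequence is one that no other version exceeded in counts. In VRHRLRGYAMDY all 5 versions were equally frequent. All the printed clonotypes used IGHV10-1.

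VRRGYAMDY: gtgagaCGGggctatgctatggactac
VRRDYFDY: gtgagaCGGgactactttgactac
VRHLFAY: gtgagacacctttttgcttac
VRHRLRGYAMDY: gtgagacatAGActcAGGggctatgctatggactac
VSPRQLRPFAY: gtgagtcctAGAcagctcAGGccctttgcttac
VRRRLGAMDY: gtgagaCGAAGAttaggggctatggactac

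VRRGYAMDY (IGHJ4) was held by 23 mice in 36 nucleotide versions, VRRDYFDY (IGHJ2) by 21 mice in 16 versions and VRHLFAY (IGHJ3) by 18 mice in 14 versions. The clonotypes with 2 or more arginines were rarer: VRHRLRGYAMDY was held by 4 mice, and VSPRQLRPFAY and VRRRLGAMDY by 3 each. Counts of the printed clonotypes were low, at 145 for VRRGYAMDY over all spleens and 154 for VSPRQLRPFAY, of which 144 came from PBS-T 4. VRHRLRGYAMDY had 5 counts in 5 nucleotide versions, and VRRRLGAMDY had 7 counts in 3 versions.

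Few IGHV10 clonotypes of the spleen were switched or mutated. The switched share was that of clonotypes whose leading isotype was neither IgM nor IgD, and it was 1.91 to 9.16% in IGHV10 (median 3.33%) and 3.75 to 10.1% in the others (median 5.52%). The ranges overlapped between mice, but within libraries IGHV10 was lower in 23 of 24, with means of 3.89% ± 1.85 and 5.84% ± 1.90 (permutation p = 1e-05, 69.2% of families called). IgM was the isotype of 86.1% of IGHV10 and 77.1% of other clonotypes, IgD of 10.05 and 17.03%, IgG of 2.05 and 3.04% and IgA of 1.83 and 2.79%. IGHV10-3 was switched more often than IGHV10-1, in 4.88 against 3.33% of clonotypes and in 23 of 24 libraries (permutation p = 1e-05). Mutations of the IGHV segment averaged 0.281 per IGHV10 clonotype and 0.758 per other clonotype (permutation p = 1e-05, 84.6% of families called), and 89.5 and 81.0% of clonotypes included an unmutated sequence. Switched clonotypes carried 1.55 ± 0.46602 mutations in IGHV10 and 3.31 ± 0.499 in the others, lower in 24 of 24 libraries (permutation p = 1e-05), where 100% of families passed in either direction.

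Switched IGHV10 clonotypes of the spleen held arginine more often than unswitched ones. These shares rest on 2644 switched clonotypes, 17 to 272 per library. The share with arginine ran from 14.1 to 45.6% (median 23.3%) in switched and from 14.97 to 19.7% (median 18.0%) in unswitched IGHV10 clonotypes. The means were 26.1% ± 8.81 and 18.1% ± 0.975, a rise of 7.96 points in 21 of 24 libraries (permutation p = 6e-05). In the other IGHV genes the means were 28.8 and 25.0%, a rise of 3.80 points in 24 of 24 libraries. The rise was larger in IGHV10 by 4.15 points, in 16 of 24 libraries (permutation p = 0.0225, adjusted over 90 comparisons 0.0450). It was 11.5 points in IGHV10-3 (29.5 against 18.0%), which exceeded the other genes by 7.74 points, in 19 of 24 libraries (permutation test, adjusted p = 0.00242). In IGHV10-1 it was 5.32 points (23.5 against 18.2%), in 14 of 24 libraries, and 1.52 points more than in the other genes on average but in 8 of 24 libraries (permutation test, adjusted p = 0.551). Among switched clonotypes alone, IGHV10 and the other genes differed by -2.76 points, which did not pass (permutation test, adjusted p = 0.145). Switched IGHV10 clonotypes were also longer, by 0.695 residues against 0.241 in the other genes, a difference of 0.453 residues in 21 of 24 libraries (permutation test, adjusted p = 0.000225).

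**Figure D4:**
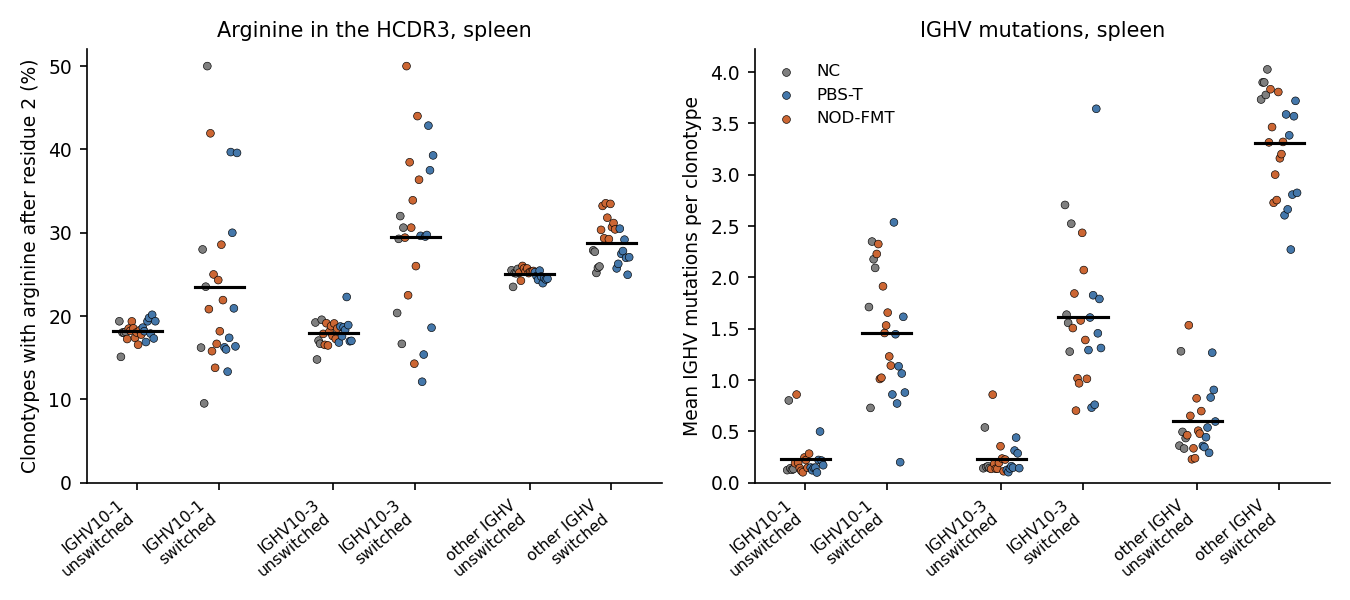
Percent of spleen clonotypes with an arginine after the first 2 HCDR3 residues (left) and mean number of IGHV mutations per clonotype (right), for unswitched and switched clonotypes of IGHV10-1, IGHV10-3 and the other IGHV genes. Points are mice coloured by group and lines are means over 24 mice. The mean share with arginine is 18.0% in unswitched and 29.5% in switched clonotypes of IGHV10-3, and 25.0 and 28.8% in those of the other genes. In IGHV10-1 the difference is smaller than in IGHV10-3. IGHV10 mutations are lower than those of the other genes.

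In the LG most IGHV10 clonotypes were IgA and close to germline. The LG features given here and below count 1-residue variants as separate clonotypes. These were 26 of 32 IGHV10 clonotypes in PBS-T 8, 22 of 42 in NOD-FMT 3 and 34 of 73 in NOD-FMT 10. Single expanded clonotypes can therefore weigh on the LG features, of which only the IgA share was recomputed without the variants. The IgA share was 40 to 94.9% in IGHV10 (median 77.9%) and 30.1 to 91.3% in the others (median 81.0%), with means of 74.6% ± 16.4 and 73.9% ± 16.6 that did not differ beyond the spread (permutation p = 0.785, adjusted 0.789). Mutations averaged 0.947 ± 0.760 per IGHV10 clonotype and 2.15 ± 0.604 per other clonotype, lower in 22 of 24 libraries (permutation test, adjusted p = 1.38e-05, 81.8% of families called). An unmutated sequence was part of 69.5% ± 18.96 of IGHV10 and 52.7% ± 7.79 of other clonotypes (permutation test, adjusted p = 0.00077, 72.7% of families called), and IGHV10 ranked first of 11 families. Among IgA clonotypes of at least 0.1% of the LG counts, 68 of 85 in IGHV10 (80.0%) and 1540 of 2610 in the others (59.0%) had a mean of less than 0.5 mutations. Compared within the 21 libraries that held both, the difference of 9.70 points, higher in 16, did not pass (permutation p = 0.148). The share of IGHV10 clonotypes of the LG that recurred in that mouse's own spleen was 40.9% ± 17.5, against 33.1% ± 12.9 for the other genes, higher in 17 of 24 mice (permutation p = 0.00427), and 2.88% recurred in the spleen of another mouse.

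HCDR3 of IGHV10 was longer in the LG than in the spleen. In the LG it averaged 11.98 residues ± 0.740, against 11.6 in the other genes of the LG (higher in 18 of 24 libraries, permutation test, adjusted p = 0.0307, 54.5% of families called) and 11.2 in the IGHV10 clonotypes of the spleen, a rise of 0.753 residues, where the other genes rose by 0.0908. The difference of these rises, 0.662 residues, was seen in 20 of 24 mice (permutation test, adjusted over 90 comparisons p = 0.00045). Among switched clonotypes alone, IGHV10 was 0.252 residues longer in the LG than in the spleen, in 16 of 24 mice, which did not pass (permutation test, adjusted p = 0.143), and the difference from the other genes was 0.327 residues (adjusted p = 0.0342). By member, the value among switched clonotypes was 0.433 residues in IGHV10-1 (permutation test, adjusted p = 0.0837), which exceeded the other genes by 0.508 residues in 16 of 24 mice (adjusted p = 0.0416), and 0.0791 residues in IGHV10-3 (adjusted p = 0.782). Arginine was found in 6.67 to 54.2% of IGHV10 clonotypes of an LG (median 22.2%), with a mean of 23.7% ± 13.7 against 30.5% ± 4.24 in the other genes (permutation test, adjusted p = 0.0244, 81.8% of families called). Set against the spleen, the IGHV10 value was 5.25 points higher, in 14 of 24 mice, which did not pass (permutation p = 0.0749, adjusted 0.120), and that of the other genes was 5.29 points higher, in 23 of 24 mice (permutation test, adjusted p = 5.29e-05). Among switched clonotypes the IGHV10 value was -3.48 points (permutation test, adjusted p = 0.420) and that of the others 2.47 points (adjusted p = 0.00852). IGHJ4 was used by 32.1% ± 12.8 of IGHV10 and 23.9% ± 3.72 of other LG clonotypes (permutation test, adjusted p = 0.0155, 45.5% of families called). The LG values of length, arginine and IGHJ4 were not recomputed without the 1-residue variants, so the part of single expanded clonotypes in them was not tested.

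Few features of the IGHV10 clonotypes themselves differed between the groups. Of 21 features compared between NOD-FMT and PBS-T in the LG, 0 passed after adjustment by the exact permutation test (lowest adjusted p 0.185, with 0.0% called over all families), and 2 had an unadjusted p under 0.05, as did 46 of the 225 features of all families. These were IGHJ4 use, at 39.1% ± 12.8 against 26.1% ± 11.03 (exact permutation p = 0.0284), and arginine in switched clonotypes, at 30.7% ± 19.2 against 11.6% ± 13.8 (exact permutation p = 0.0252). The groups were not compared for LG features without the 1-residue variants. In the spleen 0 of 21 features passed by the same exact permutation test (lowest adjusted p 0.355, with 1.85% called over all families), and 1 had an unadjusted p under 0.05, as did 32 of 270 over all families. Against NC, switched IGHV10 clonotypes of the LG carried fewer mutations in NOD-FMT, at 0.337 to 0.932 per clonotype (median 0.581) against 0.844 to 2.45 in the 5 NC mice (median 1.39). The means were 0.607 ± 0.186 and 1.56 ± 0.663 (exact permutation p = 0.000999, adjusted 0.0216, 7.41% called), and the ranges overlapped. PBS-T mice, at 1.35 ± 1.24, spanned both. IGHJ1 use of spleen IGHV10 clonotypes was 14.7% in NOD-FMT and 13.2% in NC (exact permutation p = 0.000333, adjusted 0.0180, 3.33% called). PBS-T lay between them at 14.2%, and neither its difference from NC (exact permutation p = 0.0140, adjusted 0.420) nor that from NOD-FMT (exact permutation p = 0.101, adjusted 0.598) passed.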

How the data were processed

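Read pairs were joined by the authors with PEAR, filtered on base quality and clustered by unique molecular identifier with Clustal Omega, without singletons. Isotypes came from IMGT constant genes, and IgBLAST named the V(D)J genes. The labels name the mm10 build, and the germline release is not given in the sources used here. The deposited counts are consensus sequences per unique nucleotide sequence, the deposited fraction is that count over the library total, and the other deposited value is the number of IGHV mismatches to germline. None had been normalized, and the V-specific primers may amplify genes unequally.

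Nucleotide sequences that recurred identically in at least 3 mice within a tissue were removed (9.83% of LG and 9.84% of spleen counts), after the rule in the study's methods. These shares are many times those the study gives for its own removal, so the rule applied here is not shown to be the one the study used. Without the removal, among the results recomputed, the call of IGHV10-1 in the LG was the only one lost (adjusted p = 0.0657). Counts per library after removal were 40105 to 264365 in the LG and 71859 to 2032338 in the spleen. Isotype and mutations of a clonotype are its leading isotype and its mean over counts. The mouse was the replicate, and p-values measure the spread between these mice. Groups were compared by exact permutation over all splits (92378 for NOD-FMT and PBS-T), and values within libraries or mice by sign-flip permutation with 100000 resamples, two-sided, threshold 0.05, Benjamini-Hochberg adjusted over families for IGHV10 and over genes for each member, with genes of at least 0.1% mean use. edgeR 4.0.16 on clonotype numbers (R 4.3.3) was an alternative, and other settings are given in the closing section. Named were both members, the 3 IGHV genes most like them in use, and in each tissue the 3 IGHV10 clonotypes held by most mice (ties broken by counts) and the 3 with the highest share of 1 library, with the 3 most shared having 2 or more arginines in the spleen. The printed ones are a part of these. Members and lists were chosen with earlier results of these data known. The tests were checked on simulated data with a set spread between mice and without 1-residue variants. That spread was not taken from the LG libraries, and false calls of the group permutation test were not part of the check. Gene positions and reference transcripts are from GRCm38 in GENCODE vM21, and HCDR3 sequences from the libraries. Work was done in pandas 2.3.3, SciPy 1.17.1 and NumPy 2.4.6 under Python 3.11.15, with Matplotlib 3.10.9. Blood libraries are not analysed here, and 9 PBS-T mice had libraries.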

Additional observations from a re-analysis of the deposited data

Results flagged for a closer look

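Single libraries that lay far from the rest of their group were found in 14 of 42 groups of values tested by Dixon's criterion. The 5% that this criterion gives by chance holds for independent, normally distributed values. These groups share libraries, and the family is the sum of its members, so 1 library can be flagged several times. The number of flags is therefore not set against 5%. In the LG of PBS-T 8 the IGHV10 share was 4.25% of clonotypes and 21.4% of counts, and that of IGHV10-3 was 3.72% of clonotypes and 21.4% of counts. In this library 26 of 32 IGHV10 clonotypes were 1-residue variants, and their part in the result was not tested beyond leaving them out. The LG of NOD-FMT 3 had IGHV10-3 at 3.43% of clonotypes and 16.04% of counts. NC 5 stood out in LG counts for IGHV10 (7.22%), IGHV10-1 (1.03%) and IGHV10-3 (6.19%), and PBS-T 1 for IGHV10-1 (7.27%). In the spleen NOD-FMT 6 held 3.46% of its counts in IGHV10 and 2.26% in IGHV10-3, of which the clonotype VRGSTMVTTWYFDV alone made 0.963%. Among library sizes, the LG of PBS-T 5 with 17213 clonotypes and the spleen of NOD-FMT 3 with 593820 stood out.

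The difference between LG and spleen differed between NOD-FMT and PBS-T by 2.16 points for the IGHV10 share of clonotypes and by 1.56 points for IGHV10-1, the only ones that passed of 18 such tests over family, members, measures and group pairs. Both rest on the same LG shares as the LG difference between these groups and are not independent of it.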

How the results depend on the processing

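Of the alternatives other than leaving out a mouse, 100 kept the result, 10 lost the call, 7 turned direction, 1 gained a call and 4 moved a count. A kept result had the same direction and side of the threshold or, for counts of called genes, stayed near the main count. The kept results include those that passed in neither setting. The 2.13 points by which NOD-FMT exceeded PBS-T in the LG ran from 1.88 to 2.43 without 1 mouse, all passing, and were 1.166 on the log2 scale by edgeR (adjusted p = 0.000128). The call was lost at 0.843 points in merged and 3.70 in other libraries, where fewer mice were compared, and at 1.88 with a replicate block over same-numbered mice (adjusted p = 0.137 by exact permutation). The labels do not say whether same-numbered mice of the 2 groups were handled together. Deviations of 9 such pairs correlated at a median of 0.0314 in the LG (-0.345 to 0.276) and 0.182 in the spleen (-0.462 to 0.622). Of these pairs, 3 and 5 were over 0.1. The spleen difference (-0.0317 points) was -0.0251 with the block and turned to 0.295 with clonotypes of at least 2 counts and 0.0654 with thinned libraries. By edgeR it was 0.023 on the log2 scale with TMM scaling of the libraries and -0.0194 without this scaling. Leaving out 1 mouse gave -0.107 to 0.0286 points. LG minus spleen (0.449 points) turned to -0.0303 with at least 2 counts, was 0.449 with no replicate block, and ran from 0.293 to 0.538 without 1 mouse. Arginine anywhere in HCDR3 turned the spleen difference to 2.96. The IgA difference in the LG turned to -1.72 without 1-residue variants and -0.634 in libraries not marked as merged, and ran from -0.548 to 1.58 without 1 mouse. IGHV genes called in the LG (4) numbered 0 with at least 2 counts, 8 without variants, 2 with no filter on low use and 1 to 5 without 1 mouse, and in the spleen (1) they numbered 2 with at least 2 counts and 0 to 1 without 1 mouse. With IGHV genes weighted equally the mutation difference was -0.986, and the switched difference was -8.42 with at least 2 counts and -7.54 weighted by counts. The causes were not tested. LG libraries with 7 to 194 IGHV10 clonotypes limit the precision.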

Other observations

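Among 84 IGHV genes, 3 others had the pattern of clonotype shares over the 6 group and tissue means that was nearest to the family's, measured as the root mean square difference of centred log2 shares. They were IGHV3-4 (0.125), IGHV1-63 (0.165) and IGHV1-81 (0.199). Each was at its highest mean in the LG of NOD-FMT: IGHV3-4 at 0.246% against 0.0994% in PBS-T, IGHV1-63 at 0.7101% against 0.309% and IGHV1-81 at 2.12% against 1.25%. The nearness rests on 6 means from shared libraries and is a description. Because the genes were chosen by this pattern, their highest mean in the LG of NOD-FMT follows from the choice.

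Clonotypes of a single count made up 41.3% of IGHV10 and 50.6% of other clonotypes per LG library, and 80.6 and 85.6% per spleen library. Mutated IGHV10 clonotypes were present as well: VRQNSDGVGTFDY (IGHV10-1, IGHJ2) carried a mean of 11.1 mutations in the LG of PBS-T 5 with 119 counts, and 1 count was found in the LG of NC 1 and of NC 4. VRGSTMVTTWYFDV (IGHV10-3, IGHJ1) in the spleen of NOD-FMT 6 had 2380 counts and 3.34 mutations, and this mouse's LG held 163 counts of it.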
